A study of Mus musculus with 18 samples.

Results

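Primary mammary tumours labelled Wnt1_iFGFR2 were compared with tumours labelled Wnt1 alone, across all 16887 genes that the array annotation names. The comparison used the 4 Wnt1_iFGFR2 arrays and the 6 Wnt1 arrays, 10 of the 18 arrays in the series, chosen by the label of the tumour channel. They are called iFGFR2 and Wnt1 here. The titles of both groups carry FVB, an inbred mouse strain, and MMTV and Wnt1, so the controls share the Wnt1 element with the iFGFR2 tumours. MMTV is a viral promoter active in mammary epithelium. The labels do not expand iFGFR2, and they name no agent, dose, age or promoter for it. The 4 Wnt1_iFGFR1 arrays (iFGFR1 here) served only to show where iFGFR2 differs from or matches the other receptor group named alike. The 4 Wnt1_iR2 arrays were kept out, and the labels do not say how iR2 relates to iFGFR2. Each array set tumour RNA labelled with Cy5 against whole-mouse RNA labelled with Cy3. A level is therefore a log2 ratio of tumour to that reference, and a difference is the mean level in iFGFR2 minus the mean level in Wnt1. Separate animals are not stated for the arrays, so p-values measure the spread between these arrays, which may be technical.

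Wnt1 is a secreted ligand that stabilises beta-catenin, and its forced expression in the mammary gland of mice gives tumours that hold luminal and basal epithelial cells. Fgfr2 is a cell-surface kinase that binds fibroblast growth factors. It signals through the Ras and ERK pathway, whose targets include ETS transcription factors and feedback inhibitors, and it is needed for the branching of mammary and salivary epithelium. By its title, the series asks how the receptor and Wnt-1 act together in mammary tumorigenesis.

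Promoters are shown for 4 of the genes that rose, chosen after their values were seen. These are the pair with the largest rises among named genes, and the pair with the next smallest adjusted p. They belong, in the order below, to the secretoglobin Scgb2b27, the secreted carbonic anhydrase Car6, the water channel Aqp5 and the ETS transcription factor Spdef. The windows come from RefSeq on GRCm38.p6 and run from 250 bases before to 50 bases after the start of the gene, 5′ to 3′ on the strand of the gene. Capitals mark 2 motifs searched on both strands, the ETS core AGGAAG and the TATA box, spelled TATAAA, each with its reverse complement.
Scgb2b27, chr7:34013893-34014192, minus strand: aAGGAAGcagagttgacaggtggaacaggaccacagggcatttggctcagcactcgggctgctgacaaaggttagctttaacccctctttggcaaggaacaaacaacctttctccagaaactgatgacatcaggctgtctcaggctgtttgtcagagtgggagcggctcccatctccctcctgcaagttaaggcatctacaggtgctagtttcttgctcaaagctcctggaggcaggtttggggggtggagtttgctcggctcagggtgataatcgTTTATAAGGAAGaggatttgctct
Car6, chr4:150201086-150201385, minus strand: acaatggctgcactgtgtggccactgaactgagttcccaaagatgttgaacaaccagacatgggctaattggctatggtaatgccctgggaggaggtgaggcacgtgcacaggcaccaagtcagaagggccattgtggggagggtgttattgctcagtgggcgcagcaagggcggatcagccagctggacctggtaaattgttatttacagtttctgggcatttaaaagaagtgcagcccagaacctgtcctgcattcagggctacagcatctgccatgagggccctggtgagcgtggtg
Aqp5, chr15:99590778-99591077, plus strand: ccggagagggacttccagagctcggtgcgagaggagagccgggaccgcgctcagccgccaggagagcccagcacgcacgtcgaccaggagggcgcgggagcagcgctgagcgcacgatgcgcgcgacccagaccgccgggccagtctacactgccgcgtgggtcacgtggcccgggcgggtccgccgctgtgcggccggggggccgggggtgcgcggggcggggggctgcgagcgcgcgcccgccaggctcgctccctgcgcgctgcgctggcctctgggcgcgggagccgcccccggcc
Spdef, chr17:27728902-27729201, minus strand: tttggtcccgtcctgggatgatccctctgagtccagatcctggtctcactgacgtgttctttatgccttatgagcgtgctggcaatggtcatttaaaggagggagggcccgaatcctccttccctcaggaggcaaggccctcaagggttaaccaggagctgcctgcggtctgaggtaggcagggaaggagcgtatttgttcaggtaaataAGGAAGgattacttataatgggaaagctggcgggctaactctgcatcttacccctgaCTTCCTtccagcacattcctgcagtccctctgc

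The ETS core stood 2 times in the Scgb2b27 window and 2 times in the Spdef window. In Scgb2b27 the only TATA match is the reverse complement, TTTATA, within the 50 bases after the start of the gene. An ETS match follows directly on it, without overlap. Neither motif was in the Car6 or the Aqp5 window. Among the 15 named rises described below, 14 had an entry, and 6 of the 14 held the ETS core (Dcpp1, Kcnn4, Ly6g6d, Scgb2b27, Spdef and Tpd52l1). The ETS core was in 35.4% of all 32851 promoters. The TATA box was in 1 of the 14 and in 13.6% of all promoters. These matches are letters in a window, not measured binding.

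Some arrays stood apart from their group. Wnt1 replicate 3 had the lowest mean correlation with the other Wnt1 arrays, 0.747 against 0.809 to 0.844 for the rest. It also carried the milk protein genes at far higher levels. The level of Csn1s1, alpha casein, was 7.56 on it and 1.58 or less on the other 5 Wnt1 arrays, and that of Csn2, beta casein, was 6.71 against 0.42 or less. The mean level of the fibroblast list on it was -0.99, and at most -1.94 on the others. In iFGFR2, replicate 1 had the lowest mean correlation, 0.727 against 0.754 to 0.793. Calls that depend on either array are given with the genes and lists below. No array duplicated another: the closest pair correlated at 0.932. The tumour tissue label was read against defining genes over the 10 arrays: the mean level was 3.23 for Elf5 and 2.87 for Krt18, genes of mammary and simple epithelium, and -6.13 for the intestinal gene Fabp2. Fewer cells of a type and less RNA per cell cannot be told apart in such bulk samples.

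In iFGFR2 tumours 143 genes differed from Wnt1 (limma, adjusted p under 0.05), which is 0.847% of the genes tested. Of these, 92 were higher (0.545% of all genes) and 51 were lower (0.302%). At these shares a short gene list would usually hold no call. The shares apply to every count of list members below that uses all 10 arrays, so few or no calls in a list say little about its members. The largest named rises were those of the secretoglobin Scgb2b27, the carbonic anhydrase Car6, the claudin Cldn10 and the Notch target Hey1. The largest named falls were those of Hp, which encodes haptoglobin, and of the calcium-binding protein gene S100a4. The difference exceeded 1 log2 unit for 125 of the 143. The median difference over all genes was 0.01. At an unadjusted p under 0.05, 3048 genes (18% of all) differed. The 2 groups did not overlap for 133 of the 143, against 755 of all genes (4.47%). The 143 were chosen by the difference between these same arrays, so their separation is not separate support. The number of genes called depended on single arrays: it was 13 without iFGFR2 replicate 3 and 708 without Wnt1 replicate 3, and every one of the 10 arrays moved it by over 1.5 times when left out. Without both Wnt1 replicate 3 and iFGFR2 replicate 1 it was 294, of which 107 were among the 143.

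**Figure D1:**
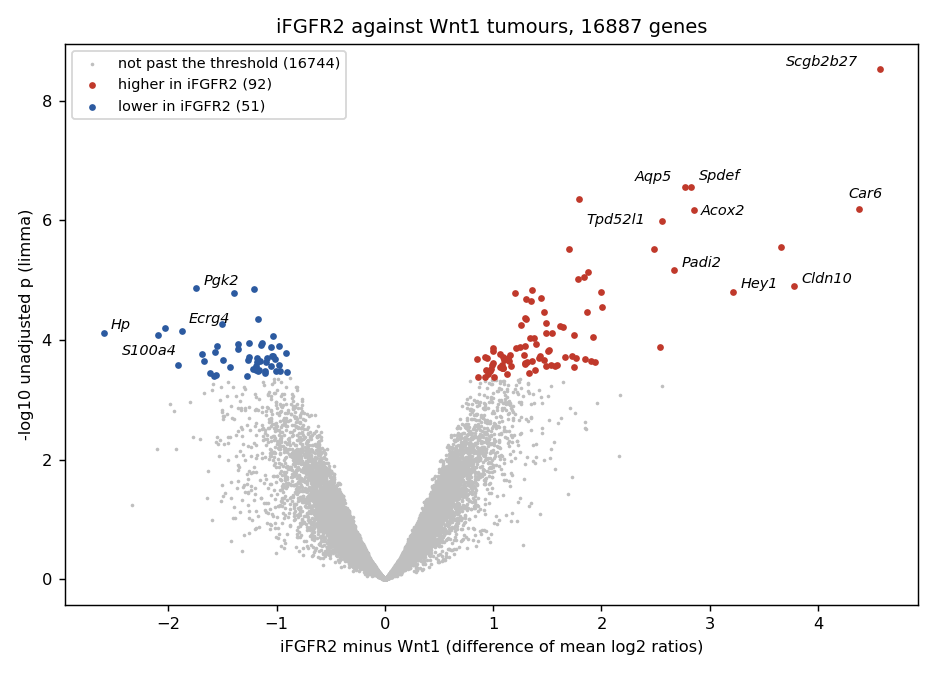
Difference of each of the 16887 genes between iFGFR2 and Wnt1 (x axis, log2 units) against the unadjusted p of limma (y axis, minus log10 scale). Red points are the 92 higher and blue points the 51 lower genes past the threshold. Scgb2b27 at 4.57 and Car6 at 4.38 lie farthest to the right, and Hp at -2.60 lies farthest to the left among the named falls.

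**Figure D2:**
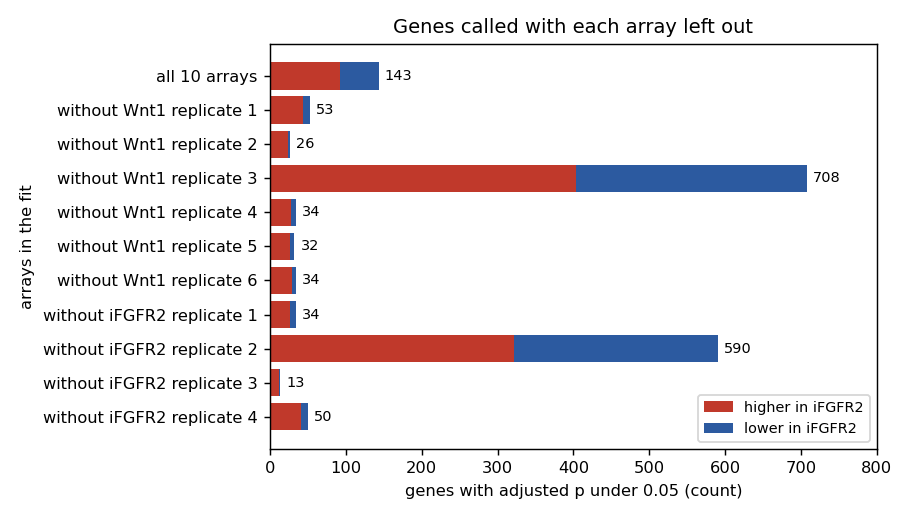
Number of genes with an adjusted p under 0.05 in the comparison of iFGFR2 with Wnt1 (x axis), higher genes in red and lower genes in blue, with all 10 arrays and with each array left out in turn (y axis). Against 143 genes with all arrays, the counts run from 13 without iFGFR2 replicate 3 to 708 without Wnt1 replicate 3 and 590 without iFGFR2 replicate 2.

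Scgb2b27 showed the largest rise. It encodes a secretoglobin, a family of small proteins secreted by glands of the skin, airway and lacrimal and salivary tissue. Its level in Wnt1 ranged from -1.24 to -0.40 with a median of -0.96, and in iFGFR2 it was 4.41, 4.71, 3.15 and 2.62 on replicates 1 to 4. All 4 iFGFR2 arrays were high, and the groups did not overlap. The difference was 4.57 (SE 0.36), a 23.7-fold rise (adjusted p = 5.12e-05). Of the 7 secretoglobins measured it was the only one called, and the next by p, Scgb1b27, differed by 0.54 (adjusted p = 0.323). Secretoglobins of this group are close relatives, and whether the feature separates them was not tested.

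Car6 encodes a carbonic anhydrase that is secreted into saliva and milk. Its level in Wnt1 ranged from -3.97 to -2.72 with a median of -3.80, and in iFGFR2 it was 2.71, 0.80, 0.57 and -1.15. The lowest iFGFR2 array still lay above every Wnt1 array, while the iFGFR2 arrays spread over more than 3 log2 units. The difference was 4.38 (SE 0.52, 20.8-fold, adjusted p = 0.00187), and 3.91 (adjusted p = 0.000192) without both arrays that stood apart. The other 15 carbonic anhydrases measured gave no call, and Car8 came nearest with a difference of 1.12 (adjusted p = 0.074).

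Aqp5, the water channel of the apical membrane in salivary, lacrimal and airway glands, was already above the reference in Wnt1. Its level there ranged from 0.59 to 1.71 with a median of 1.25, and in iFGFR2 it was 4.60, 4.54, 3.70 and 3.04. The groups lay more than 1 log2 unit apart. The difference was 2.77 (SE 0.31, 6.84-fold, adjusted p = 0.00156). It was the 1 called of 10 aquaporins, and 1 of 2 without Wnt1 replicate 3. Aqp4 differed by 1.07 (adjusted p = 0.0693) and Aqp3 by -1.93 (adjusted p = 0.126).

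Dcpp1 encodes a secreted protein first described in salivary demilune cells. Its level in Wnt1 ranged from -6.08 to -4.54 with a median of -4.74, and in iFGFR2 it was -2.39, -1.54, -2.90 and -3.06. It stayed below the whole-mouse reference on all arrays of both groups, and the groups did not overlap. The difference was 2.49 (SE 0.34, 5.61-fold, adjusted p = 0.00508). The 2 features that carry this symbol gave 2.52 and 2.45. Near-identical Dcpp genes could share these features, so the rise may belong to any of them.

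Aqp5, Car6 and Dcpp1 were the 3 called of 12 measured genes on a list of salivary acinar products (0.545% of all genes were higher). The median difference of the list was 0.17, and 0.06 without iFGFR2 replicate 1, beside 0.01 over all genes. The mean level over the list lay between -2.67 and -2.30 on the Wnt1 arrays and between -2.04 and -1.27 on the iFGFR2 arrays. This mean includes the 3 called genes, so its gap does not stand apart from their rises. Other defining products of that gland were not called. Smgc differed by -0.04, Amy1 by -0.04, Bpifa2 by -0.13, Pip by 0.61 and Mucl2 by 0.63. The part of salivary tissue in the result was not tested beyond these values.

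Spdef encodes an ETS factor that drives secretory differentiation in goblet and other epithelial cells. Its level in Wnt1 ranged from -0.71 to -0.04 with a median of -0.51, and in iFGFR2 it was 3.66, 1.85, 2.25 and 1.83. Replicate 1 was highest, and the groups did not overlap. The difference was 2.83 (SE 0.32, 7.11-fold, adjusted p = 0.00156), and 2.45 (adjusted p = 0.000192) without both arrays that stood apart. It was the 1 called of 24 ETS factors, whose median difference was 0.05, and 1 of 3 called without Wnt1 replicate 3. Etv1, an ETS factor that ERK signalling induces, differed by 1.05 (adjusted p = 0.114).

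Spdef was also 1 of 3 called among 24 luminal epithelial genes, with Tspan8 and Kit (0.545% of all genes were higher). Tspan8, a tetraspanin of the cell surface, ranged from -1.81 to -0.47 in Wnt1 with a median of -1.03, and stood at 1.10, 0.48, 0.83 and -0.03 in iFGFR2. The difference was 1.64 (SE 0.29, 3.12-fold, adjusted p = 0.0285). Kit, the receptor of stem cell factor and a marker of luminal progenitors, ranged from 2.49 to 3.33 in Wnt1 with a median of 2.87, and stood at 3.67, 3.76, 4.10 and 4.03 in iFGFR2. Kit was above every Wnt1 array on all 4, with a smaller difference of 0.99 (SE 0.21, 1.99-fold, adjusted p = 0.041). Tspan8 and Kit did not pass without iFGFR2 replicate 1 (adjusted p = 0.0818 and 0.078) or without iFGFR2 replicate 3 (adjusted p = 0.085 and 0.111). Of the 10 fits that leave out 1 array, the Tspan8 call held in 5 and the Kit call in 2. Kit was also lost with quantile normalization (adjusted p = 0.111) and with arrays scaled to 1 median absolute deviation (adjusted p = 0.296). The same held with the number in the array title, the title number, as a covariate (adjusted p = 0.131). The luminal list as a whole had a median difference of 0.28, beside 0.01 over all genes, with 14 of 24 genes positive. It had 5 higher without Wnt1 replicate 3 and 1 higher without iFGFR2 replicate 1. The luminal genes Elf5 (1.23, adjusted p = 0.279), Krt18 (0.70, adjusted p = 0.306) and Elf3 (-1.11, adjusted p = 0.207) did not pass.

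**Figure D3:**
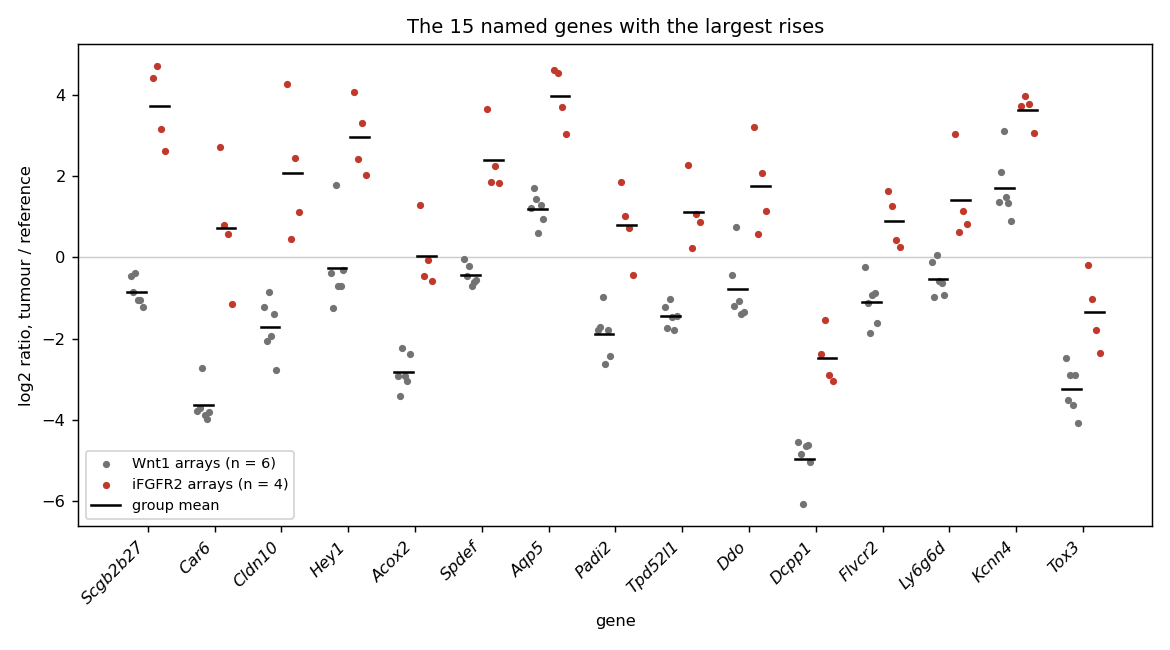
Levels (log2 ratio of tumour to whole-mouse reference) on each of the 6 Wnt1 and 4 iFGFR2 arrays for the genes with the largest rises, points being single arrays (grey Wnt1, red iFGFR2) and black bars group means. For Scgb2b27 the iFGFR2 arrays lie between 2.62 and 4.71 and the Wnt1 arrays between -1.24 and -0.40, and for Hey1 the single high Wnt1 point at 1.77 is replicate 3.

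Hey1, a transcriptional repressor induced by Notch receptors, was the 1 called of 10 Hes and Hey factors. The Wnt1 arrays lay between -1.24 and 1.77 with a median of -0.55, and the iFGFR2 arrays at 4.07, 2.42, 3.31 and 2.02. The groups did not overlap, although Wnt1 replicate 3, at 1.77, lay close to the lowest iFGFR2 array. The difference was 3.22 (SE 0.51, 9.30-fold, adjusted p = 0.0128). It was 3.62 (adjusted p = 0.000566) without Wnt1 replicate 3, and 3.10 (adjusted p = 0.0661) without iFGFR2 replicate 3. None of 23 Notch receptors, ligands and modifiers passed, and Notch4 came nearest with a difference of 0.70 (adjusted p = 0.118). Hes1, another target of Notch, differed by -0.36 (adjusted p = 0.411).

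Cldn10, a tight-junction protein that forms ion channels between cells, was the 1 called of 21 claudins. Levels in Wnt1 lay between -2.79 and -0.86 with a median of -1.66, and in iFGFR2 they were 4.26, 0.44, 2.45 and 1.11. The iFGFR2 arrays spread widely but lay above every Wnt1 array. The difference was 3.77 (SE 0.58, 13.7-fold, adjusted p = 0.0128), and 3.65 (adjusted p = 0.0626) without iFGFR2 replicate 3. Cldn1 differed by 0.88 (adjusted p = 0.146).

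Acox2, a peroxisomal oxidase of branched fatty acids and bile acid precursors, was the 1 called of 18 genes of peroxisomal oxidation, and 1 of 4 without Wnt1 replicate 3. The Wnt1 levels ran from -3.41 to -2.23 with a median of -2.92, and the iFGFR2 levels were 1.27, -0.46, -0.07 and -0.60. The difference was 2.85 (SE 0.34, 7.22-fold, adjusted p = 0.00187). Padi2, which converts arginine in proteins to citrulline, was the 1 called of 5 deiminases. Wnt1 arrays gave -2.62 to -0.97 with a median of -1.80, and iFGFR2 arrays gave 1.84, 1.01, 0.72 and -0.44, a difference of 2.67 (SE 0.39, 6.38-fold, adjusted p = 0.0103). For both genes iFGFR2 replicate 1 was highest and replicate 4 lowest, and the groups did not overlap. Tpd52l1, a coiled-coil protein of the tumor protein D52 family, ranged from -1.79 to -1.03 in Wnt1 with a median of -1.46, and stood at 2.27, 0.24, 1.08 and 0.86 in iFGFR2. Its difference was 2.56 (SE 0.32, 5.90-fold, adjusted p = 0.00246).

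The remaining 5 of the 15 named rises held less well when an array was left out. Ddo, a peroxisomal D-aspartate oxidase, differed by 2.54 (adjusted p = 0.0377), with 3 of the 4 iFGFR2 arrays above the whole Wnt1 range. Kcnn4, a calcium-activated potassium channel, differed by 1.92 (adjusted p = 0.0339) and was likewise above on 3 of 4. Flvcr2, a transmembrane transporter, differed by 2.01 (adjusted p = 0.0184). Ly6g6d, a lipid-anchored surface protein, differed by 1.94 and Tox3, a nuclear protein of the HMG-box class, by 1.91 (adjusted p = 0.0398 for each). None of these 5 passed without iFGFR2 replicate 1, where their adjusted p lay between 0.0525 for Ly6g6d and 0.12 for Tox3. Of the 15 named rises, 13 lay above every Wnt1 array on all 4 iFGFR2 arrays (2.50% of all genes did so). The 15 were chosen by the difference between these arrays, so this is not separate support. Adjusted p stayed under 0.05 in all 22 alternative settings for 8 of the 15: Scgb2b27, Car6, Acox2, Spdef, Aqp5, Padi2, Tpd52l1 and Dcpp1.

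Hp showed the largest fall. It encodes haptoglobin, a plasma protein that binds free haemoglobin and is made in liver and fat. Its level in Wnt1 ranged from -3.21 to -0.45 with a median of -1.86, and in iFGFR2 it was -5.74, -4.06, -4.21 and -4.34. The groups did not overlap, with iFGFR2 replicate 1 the lowest. The difference was -2.60 (SE 0.48, 6.05-fold lower, adjusted p = 0.0321), and -2.21 (adjusted p = 0.0873) without that array. Of 18 genes of the acute phase and secreted defence it was the 1 called (1 higher and 2 lower without Wnt1 replicate 3), and Serpina3n, a protease inhibitor, came nearest with -1.30 (adjusted p = 0.0558). Markers of adipocytes, which make haptoglobin, had a list mean far below the reference in both groups. It lay between -4.03 and -3.06 in Wnt1 and between -4.06 and -3.89 in iFGFR2, and 0 of 15 passed. The list mean was highest on Wnt1 replicates 3 (-3.06) and 1 (-3.40), where Hp was also highest (-0.45 and -1.55). The part of fat content in the Hp fall was not tested.

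The S100 proteins, small calcium-binding proteins, had 2 of 14 members lower and 0 higher. Of all genes 0.302% were lower and 0.545% higher. The median difference of the list was -0.62, beside 0.01 over all genes, and 10 of 14 were negative. S100a4, a marker of fibroblasts and motile cells, ranged from 0.22 to 1.06 in Wnt1 with a median of 0.64, and stood at -2.95, -0.21, -1.52 and -1.14 in iFGFR2. The difference was -2.09 (SE 0.39, 4.27-fold lower, adjusted p = 0.0328). S100a11, an annexin partner, ranged from 0.65 to 1.07 in Wnt1 with a median of 0.94, and stood at -0.25, -0.61, 0.10 and 0.30 in iFGFR2, a difference of -1.04 (SE 0.21, 2.05-fold lower, adjusted p = 0.0398). Both sets of levels were separate between the groups. S100a6 did not pass at -1.98 (adjusted p = 0.0698), and S100a16 was the highest member at 0.75 (adjusted p = 0.0698). Neither S100a4 nor S100a11 passed without iFGFR2 replicate 3 (adjusted p = 0.0857 and 0.0845), and S100a11 did not pass without iFGFR2 replicate 1 (adjusted p = 0.108). Without Wnt1 replicate 3 the S100 list had 4 lower.

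S100a4 also stands on the list of fibroblast and matrix genes, where it was the 1 called of 26, and 1 of 2 without Wnt1 replicate 3. The median difference of that list was -0.46, beside 0.01 over all genes, with 22 of 26 negative. It was -0.27 without Wnt1 replicate 3, whose fibroblast level was the highest of all 10 arrays. The list mean lay between -2.16 and -0.99 in Wnt1 and between -2.49 and -2.18 in iFGFR2. Pdgfrb, a growth factor receptor of fibroblasts and pericytes, differed by -1.19 (adjusted p = 0.0657). The part of fibroblast content in the S100a4 result was not tested.

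Ecrg4, which encodes a secreted peptide precursor, ranged from 0.32 to 2.28 in Wnt1 with a median of 1.79, and stood at -0.36, -0.09, -0.92 and 0.30 in iFGFR2. The difference was -1.88 (SE 0.34, 3.67-fold lower, adjusted p = 0.031). The lowest Wnt1 array was replicate 3, just above the highest iFGFR2 array. Without Wnt1 replicate 3 the Ecrg4 difference was -2.13 (adjusted p = 0.00132). The call was lost without iFGFR2 replicate 1 (adjusted p = 0.078), without iFGFR2 replicate 3 (adjusted p = 0.0929) and with the title number as a covariate (adjusted p = 0.0796), and it held in 3 of the 10 fits that leave out 1 array. Pgk2, a phosphoglycerate kinase of sperm, ranged from -1.16 to 0.03 in Wnt1 with a median of -0.55, and stood at -2.70, -1.79, -2.72 and -2.0 in iFGFR2. The difference was -1.74 (SE 0.27, 3.35-fold lower, adjusted p = 0.0128). Its call held in 9 of the 10 fits that leave out 1 array, the most of the 15 named falls.

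Id1, a target of BMP signalling that blocks basic helix-loop-helix factors, ranged from -2.35 to -0.84 in Wnt1 with a median of -1.70, and stood at -3.89, -2.55, -3.08 and -3.41 in iFGFR2. The difference was -1.57 (SE 0.31, 2.96-fold lower, adjusted p = 0.0398). The Id1 call was lost without iFGFR2 replicate 1 (adjusted p = 0.118), without iFGFR2 replicate 3 (adjusted p = 0.0929) and without both arrays that stood apart (adjusted p = 0.0566). Epgn, a ligand of the EGF receptor, ranged from -0.93 to 0.31 in Wnt1 with a median of 0.01, and stood at -1.89, -0.68, -1.87 and -1.98 in iFGFR2. The groups overlapped, since iFGFR2 replicate 2 lay inside the Wnt1 range. The difference was -1.43 (SE 0.30, 2.70-fold lower, adjusted p = 0.041), and the Epgn call was lost in the same 3 fits (adjusted p = 0.127, 0.112 and 0.0642). Epgn was the 1 called of 13 receptors and ligands of the EGF family. The median difference of that family was -0.33, and -0.19 without iFGFR2 replicate 1. Egf itself differed by 1.53 (adjusted p = 0.126) and Erbb2 by -0.58 (adjusted p = 0.161).

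The other named falls were Dnajb8 (-2.02), Trim3 (-1.91), Brf2 (-1.69), Cyp2f2 (-1.67), Cpne1 (-1.62), Ero1b (-1.56), Mrps17 (-1.54), Olfml3 (-1.50) and Tspan17 (-1.49). Their known roles differ: Trim3 is a ubiquitin ligase, Brf2 a subunit of an RNA polymerase III initiation factor, Cyp2f2 a cytochrome P450 of the airway and Mrps17 a mitochondrial ribosomal protein. Their adjusted p lay between 0.0277 for Olfml3 and 0.0477 for Ero1b. Of the 15 named falls, 11 lay below every Wnt1 array on all 4 iFGFR2 arrays (1.97% of all genes did so). They too were chosen by the difference between these arrays. Without iFGFR2 replicate 1 only S100a4 and Pgk2 of the 15 passed, without iFGFR2 replicate 3 none did, and without both arrays that stood apart 8 did. With the title number as a covariate 2 did, Dnajb8 and Pgk2. The Hp call held in 4 of the 10 fits that leave out 1 array and the S100a4 call in 3. Those of Trim3, Brf2, Cpne1 and Ero1b held in 2. All 15 passed without Wnt1 replicate 3.

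**Figure D4:**
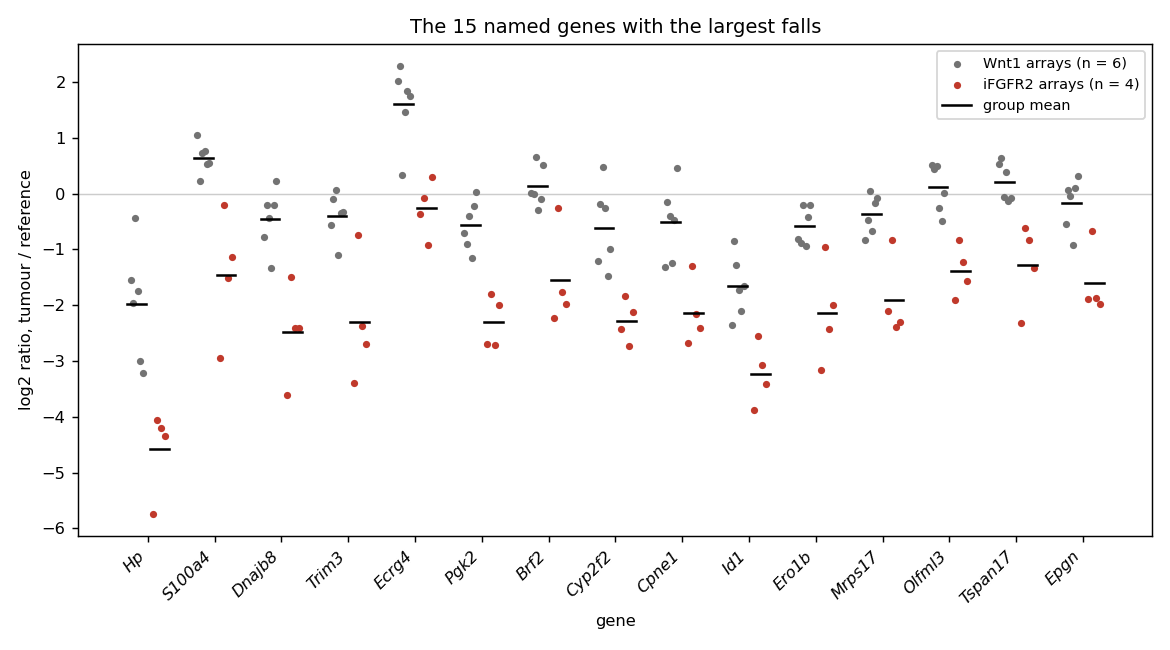
Levels (log2 ratio of tumour to whole-mouse reference) on each of the 6 Wnt1 and 4 iFGFR2 arrays for the genes with the largest falls, points being single arrays (grey Wnt1, red iFGFR2) and black bars group means. Hp lies between -5.74 and -4.06 in iFGFR2 and between -3.21 and -0.45 in Wnt1, while Epgn at -0.68 on iFGFR2 replicate 2 lies within the Wnt1 range.

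Fgfr2, Fgfr1 and Wnt1, the genes named in the group labels, did not differ past the threshold, nor did Fkbp1a, which no label names and which was read with them. Fgfr2 ranged from -0.29 to 0.51 in Wnt1 with a median of 0.12, and stood at -0.81, 0.40, -0.72 and -0.55 in iFGFR2. Of the 4 iFGFR2 arrays 3 were below every Wnt1 array and replicate 2 was inside the Wnt1 range. The difference was -0.53 (95% interval -1.09 to 0.02, adjusted p = 0.294). The difference was -0.01 for Fgfr1, -0.03 for the gene Wnt1 and -0.14 for Fkbp1a, which encodes an FK506-binding protein. The sources used here do not say whether these features would detect a construct, so these values check nothing about the iFGFR2 label. In iFGFR1 the Fgfr1 level was 1.38 higher than in Wnt1 (limma, fit with the iFGFR1 arrays, adjusted p = 0.000567).

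Of 10 FGF receptors and coreceptors and 22 FGF ligands none was called (0.847% of all genes were called). Flrt3, a membrane protein that binds FGF receptors, ranged from -1.72 to -1.02 in Wnt1 with a median of -1.29, and stood at 0.54, -0.41, -0.49 and -0.72 in iFGFR2. The groups did not overlap, and the difference of 1.05 missed the threshold (adjusted p = 0.0608). It passed without Wnt1 replicate 3 (adjusted p = 0.039). Fgf3, a ligand that MMTV insertions activate in mouse mammary tumours, ranged from -1.08 to 0.26 in Wnt1 with a median of 0.02, and stood at 2.93, 1.03, 0.46 and 0.96 in iFGFR2. Every iFGFR2 array lay above every Wnt1 array, with replicate 1 far the highest, and the difference was 1.51 (adjusted p = 0.0859). Without that array it was 0.98 (adjusted p = 0.186).

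Targets and feedback inhibitors of FGF and ERK signalling gave 0 calls in 22 genes (0.847% of all genes were called). Their median difference was 0.17, beside 0.01 over all genes, and 17 of the 22 were positive. The mean level over the list lay between 0.56 and 0.73 in Wnt1 and between 0.70 and 1.04 in iFGFR2. Dusp6, a phosphatase that acts on ERK, differed by 0.69 (adjusted p = 0.193), and Phlda1 by 1.10 (adjusted p = 0.195). Egr1, an early response factor, differed the other way, by -1.45 (adjusted p = 0.11). Without Wnt1 replicate 3 Egr1 passed, at -1.66 (adjusted p = 0.0376), as the 1 lower gene of the list.

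Among 28 targets of Wnt and beta-catenin 1 was higher and 0 lower (0.545% and 0.302% of all genes), with a median difference of -0.15. Without Wnt1 replicate 3 there were 1 higher and 3 lower, and without both arrays that stood apart 1 higher and 2 lower. The median was -0.09 without iFGFR2 replicate 1. The 1 higher gene with all arrays was Prom1, a membrane protein of epithelial protrusions that also marks hormone-sensing luminal cells. On the Wnt1 arrays it ranged from 0.26 to 1.25 (median 0.72), and on the iFGFR2 arrays it stood at 3.09, 1.73, 2.53 and 2.91. The groups did not overlap, and the difference was 1.88 (SE 0.28, 3.67-fold, adjusted p = 0.0103). With the title number as a covariate Prom1 did not pass (adjusted p = 0.0536). Lgr5, a receptor for R-spondins, differed by -1.45 (adjusted p = 0.145), and by -0.98 (adjusted p = 0.0362) without both arrays that stood apart. Of 35 Wnt ligands, receptors and R-spondins none passed, and their median difference was -0.03.

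**Figure D5:**
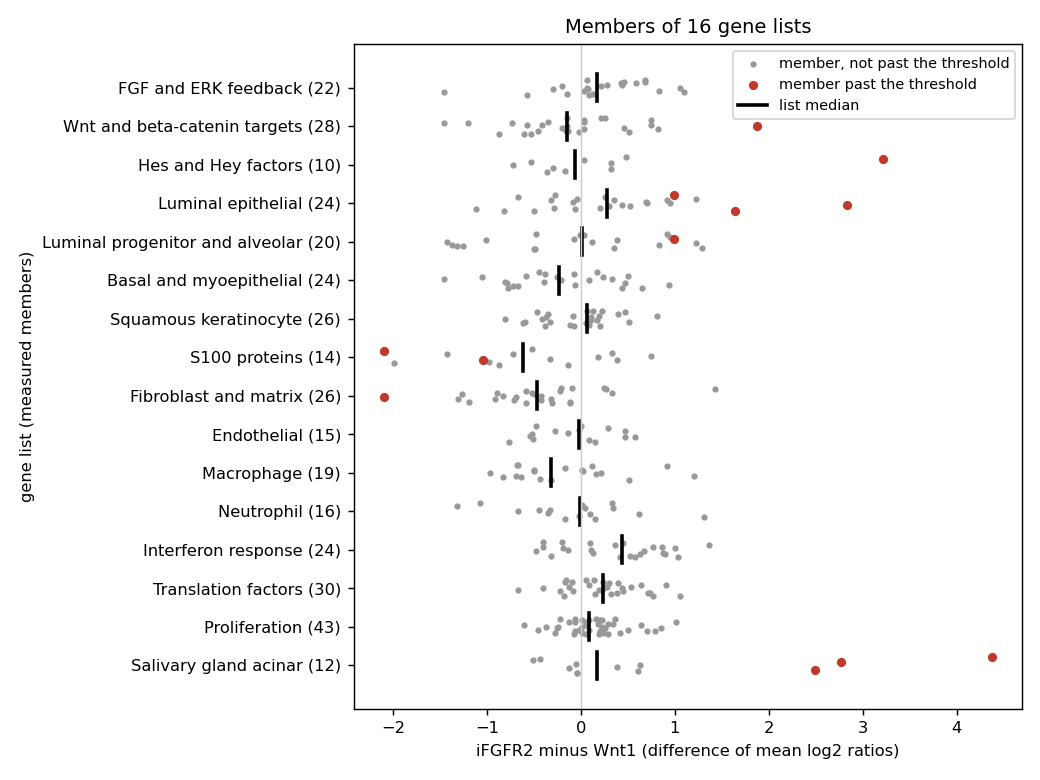
Difference between iFGFR2 and Wnt1 (x axis, log2 units) of each measured member of 16 gene lists (y axis, members measured in parentheses), red points past the threshold, grey points not, and black bars the list medians. The S100 proteins (-0.62) and the fibroblast and matrix genes (-0.46) have the lowest medians shown and the interferon response (0.44) the highest, while the red points of the salivary list, at 2.49, 2.77 and 4.38, lie far from its median of 0.17.

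Mammary lineage and tissue lists beyond the luminal genes gave few calls, beside 0.545% of all genes higher and 0.302% lower. Lists this short would usually hold none at those shares. Of 14 hormone-sensing luminal genes 1 was higher (Prom1; 2 without Wnt1 replicate 3), of 20 luminal progenitor and alveolar genes 1 (Kit), and of 24 basal and myoepithelial genes none, with a median difference of -0.23. Krt5 differed by -0.78 (adjusted p = 0.132), Krt14 by -0.80 (adjusted p = 0.205) and Krt17 by -1.05 (adjusted p = 0.138). Of the 24 basal and myoepithelial genes 9 were positive, among them Myh11 at 0.93 (adjusted p = 0.455) and Acta2 at 0.65 (adjusted p = 0.257). Without iFGFR2 replicate 1 the Myh11 difference was 0.24. The alveolar list had 5 higher without Wnt1 replicate 3 and none without iFGFR2 replicate 1. The basal median was -0.10, with 1 lower, without both arrays that stood apart. Of 26 squamous keratinocyte genes none passed, and Klk5, a protease of the skin, came nearest at -0.81 (adjusted p = 0.0565), and Klk5 passed without Wnt1 replicate 3 (adjusted p = 0.0432).

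Of the cell types that can lie within a tumour, endothelial cells (15 genes), pericytes (11), adipocytes (15), macrophages (19), MHC class II cells (9), neutrophils (16), T and NK cells (18), B and plasma cells (12), mast cells (8), red blood cells (5) and skeletal muscle (15) gave no call. Of 6 nerve and Schwann cell genes 1 was lower, Pmp22, a myelin protein that is also expressed in other tissues. It differed by -1.25 (adjusted p = 0.0398), a call lost without iFGFR2 replicate 1 (adjusted p = 0.078). The Pmp22 call held in 2 of the 10 fits that leave out 1 array. With 0.847% of all genes called, the lack of a call in lists this short says little about these cell types. Median differences of these lists lay between -0.33 for adipocytes and 0.33 for pericytes. Both ends rested on arrays that stood apart: the adipocyte median was -0.17 without Wnt1 replicate 3, and the pericyte median was 0.06 without iFGFR2 replicate 1. The class II invariant chain Cd74 differed by -1.0 (adjusted p = 0.0698) and Cd163 of macrophages by -0.97 (adjusted p = 0.0768). Of the 19 macrophage genes 8 were positive, among them Arg1 at 1.205 (adjusted p = 0.141) and Fcgr1 at 0.51 (adjusted p = 0.147). Without Wnt1 replicate 3, macrophages and neutrophils had 1 higher and 1 lower each, with Cd163 at -1.0 (adjusted p = 0.0476), and red blood cells had 1 higher. 

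Lists of cell state gave no call either with all arrays (0.847% of all genes were called), and 1 or 2 each without Wnt1 replicate 3. The median difference was 0.09 for 43 proliferation genes, 0.24 for 30 translation factors, 0.04 for 21 hypoxia and glycolysis genes, 0.02 for 21 genes of unfolded protein and amino acid stress, and 0.00 for 23 early response and heat shock genes. It was 0.44 for 24 interferon response genes, beside 0.01 over all genes, and 17 of the 24 were positive. Rtp4, an interferon-induced chaperone, differed by 1.37 (adjusted p = 0.147).

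The direct comparison with iFGFR1 asked where the iFGFR2 tumours differ from those with the other labelled FGF receptor. In a fit with the Wnt1 arrays, 171 genes (1.01%) differed between iFGFR2 and iFGFR1 (limma, adjusted p under 0.05), 96 higher in iFGFR2 and 75 lower. Both comparisons use the same iFGFR2 arrays. Of the 143 genes that differed from Wnt1, 6 also differed from iFGFR1. Of the 15 named rises this held for Dcpp1, and of the 15 named falls for Ecrg4. Of the same 143 genes, 108 also passed between iFGFR1 and Wnt1 in that fit. All 15 named rises were higher in iFGFR1 than in Wnt1, and 12 of them passed. All 15 named falls were lower in iFGFR1 than in Wnt1, and 14 of them passed. Both sets of differences are taken from the same 6 Wnt1 arrays. The share of all genes that passed between iFGFR1 and Wnt1 was not counted, so the 108, 12 and 14 cannot be set against it.

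Dcpp1 was 1.85 higher in iFGFR2 than in iFGFR1 (adjusted p = 0.0151), where its levels were -4.75, -4.16, -4.08 and -4.29. Tspan8 was 2.13 higher (adjusted p = 0.00519), with iFGFR1 levels between -2.03 and -0.94. Foxa3, a forkhead factor of endoderm and goblet cells, was 1.20 higher (adjusted p = 0.044). These 3 were high in iFGFR2 against both other groups, whereas the next 3 genes were not extreme in iFGFR2. Pglyrp1, an antibacterial protein that binds peptidoglycan, had a mean level of 0.03 in iFGFR2, -1.67 in Wnt1 and 1.83 in iFGFR1, and was 1.80 lower in iFGFR2 than in iFGFR1 (a difference of -1.80, adjusted p = 0.00386). Ecrg4 had a mean level of -0.27 in iFGFR2, 1.61 in Wnt1 and -1.82 in iFGFR1, with an iFGFR2 minus iFGFR1 difference of 1.55 (adjusted p = 0.0432). Pdgfrl, a protein related to platelet-derived growth factor receptors, had mean levels of -1.05, -0.01 and -2.59 in the same order, with a difference of 1.54 (adjusted p = 0.00993). Foxa3, Pglyrp1 and Pdgfrl were named after their values were seen.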

How the data were processed

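Two-channel arrays measured RNA of primary mammary tumours. Per the labels, tumour RNA was labelled with Cy5 and whole-mouse reference RNA with Cy3. The authors deposited a table of log ratios of 22575 features, taken as log2; the sources used here name no scanner, background correction or normalization for it. The table states neither log base nor direction, and the dyes set the latter (tumour over reference). Column medians lay between -0.023 and 0.009. Of the features, 18658 had 1 symbol, 30 several and 3887 none (17.2%), and 18445 entries matched the GRCm38.p6 gene table. Features of a symbol were averaged, giving 16887 genes. For the 1081 genes with 2 features, the median correlation between features was 0.071.

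Tests used lmFit and eBayes of limma 3.58.1 (R 4.3.3) without covariates: the 10 iFGFR2 and Wnt1 arrays for the main comparison, and these with the 4 iFGFR1 arrays (14 arrays) for iFGFR2 against iFGFR1. The fit of 14 arrays also compared iFGFR1 with Wnt1. P-values were adjusted by Benjamini-Hochberg over all genes, with a threshold of 0.05. The code was tested on simulated data. No gene list was tested; lists are described by counts and medians, and 758 of 832 entries in 43 lists were measured. Named genes are those in the labels with Fkbp1a, the 15 largest rises and falls past the threshold, up to 4 called members of each list, and up to 3 members by smallest p of signalling, lineage and cell type lists without a call. Unnamed clones were passed over, 2 among the rises and 1 among the falls. Further list members given as values were chosen after their values were seen. The comparison, its members and lists were chosen with earlier results of these data known. Alternatives covered scaling, array weights, priors, features, a variance filter, the arrays fitted, the title number and each array left out. Figures were drawn with matplotlib 3.10.9.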

Additional observations from a re-analysis of the deposited data

Results flagged for a closer look

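A sample far from the rest of its group was found in 16 of the 184 sets of levels examined (named genes in Wnt1 or iFGFR2), by the gap to the nearest sample relative to the range. Chance gives such a gap in about 5% of sets. Wnt1 replicate 3 accounted for 7 of the 16. It was highest for Car6 (-2.71, nearest -3.70), Hey1 (1.77, nearest -0.31), Krtdap (-2.22, nearest -3.15), Myh11 (-0.58, nearest -3.23) and Pmp22 (-1.31, nearest -2.20), and lowest for Dcpp1 (-6.08, nearest -5.03) and Lgr5 (0.07, nearest 1.21). In iFGFR2, replicate 1 was lowest for Hp (-5.74, nearest -4.34) and Lgr5 (-2.35, nearest 0.14) and highest for Myh11 (0.06, nearest -2.51), and replicate 2 was highest for Epgn (-0.68, nearest -1.87). Other Wnt1 arrays stood apart for Fgfr1 (replicate 5, -0.06), Etv1 (replicate 5, -0.98), Fgfr4 (replicate 1, -2.40), Ciita (replicate 1, 1.10) and Wnt9b (replicate 2, -0.77).

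Among named genes, 9 differed between iFGFR2 and iFGFR1 in the test of that difference itself (limma, adjusted p under 0.05). The iFGFR2 minus iFGFR1 difference was 2.13 for Tspan8, 1.85 for Dcpp1 and 1.55 for Ecrg4. It was -1.39 for Fgfr1 (adjusted p = 0.0059), the receptor named in the iFGFR1 label. It was -2.03 for the basal keratin Krt17 (adjusted p = 0.0145), -2.48 for the keratinocyte gene Krtdap (adjusted p = 0.0143), -1.89 for the skin protease Klk5 (adjusted p = 0.00097), -2.06 for arginase Arg1 (adjusted p = 0.0213) and -1.95 for the chemokine Cxcl2 (adjusted p = 0.0441). These last 5 genes did not pass between iFGFR2 and Wnt1, where Arg1 differed by 1.205 and Krt17, Krtdap, Klk5 and Cxcl2 were lower. All 5 were higher in iFGFR1 than in Wnt1. That difference was 3.26 for Arg1 (adjusted p = 7.09e-05), 1.86 for Krtdap (adjusted p = 0.0107) and 1.08 for Klk5 (adjusted p = 0.00552). It was 0.98 for Krt17 (adjusted p = 0.0846) and 0.88 for Cxcl2 (adjusted p = 0.182).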

How the results depend on the processing

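Every named gene that was called kept its direction under all alternatives run, but the number of calls did not hold. For iFGFR2 against Wnt1 (143 genes as reported) leaving out 1 array gave 13 to 708 genes. It was 700 with array weights, 579 with all 18 arrays in 1 fit, 217 without the least variable 25% of genes, 54 with the title number as a covariate (43 higher and 11 lower, 39 of them among the 143), 542 at an adjusted p under 0.1 and 10 under 0.01. It was 294 without both arrays of lowest correlation, an alternative chosen after seeing the data. For iFGFR2 against iFGFR1 (171 genes as reported) leaving out 1 array gave 73 to 248. It was 82 with each array scaled to 1 median absolute deviation, 360 with all 18 arrays, 71 with only the 8 compared arrays and 327 without both arrays of lowest correlation. The cause of these shifts was not tested. The other settings stayed within 1.5 times, from 125 to 189 genes in the first comparison and from 147 to 215 in the second. The share of higher genes in the first comparison was 64.3%, 79.6% with the title number and 54.6% to 92.3% with 1 array left out. Without Wnt1 replicate 3, 22 of the 43 lists had other counts of calls. Called in every fit that leaves out 1 array were 13 genes, and 26 in 8 or more. No paired analysis was possible because the replicate numbers follow accession order and pair no arrays. The number of arrays limits the precision; features without a symbol were not analysed here.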

Other observations

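Several called genes outside the lists encode metabolic enzymes. They were picked after their values were seen, and no theme was tested. Aldh1l1, a folate enzyme, had levels between -3.99 and -3.09 in Wnt1 and of -1.15, -2.24, -1.52 and -2.38 in iFGFR2, a difference of 1.78 (SE 0.27, adjusted p = 0.0117). Shmt1, which makes glycine from serine, differed by 1.08 (adjusted p = 0.041), and the proline oxidase Prodh by 1.13 (adjusted p = 0.0466). Idh1, a cytosolic source of NADPH, differed by 1.49 (adjusted p = 0.041), Hsd17b12, an enzyme of fatty acid elongation, by 1.45 (adjusted p = 0.0143), and the liver glycogen phosphorylase Pygl by 1.29 (adjusted p = 0.0242). Ppargc1a, a coactivator of mitochondrial genes, differed by 1.31 (adjusted p = 0.0143), with all 4 iFGFR2 arrays above every Wnt1 array. The respiratory chain genes Cox5a and Uqcr10 were lower, by -1.17 (adjusted p = 0.0434) and -0.91 (adjusted p = 0.0441). The calls of Shmt1, Prodh, Idh1, Cox5a and Uqcr10 each held in only 2 of the 10 fits that leave out 1 array. That of Pygl held in 5, and those of Aldh1l1, Hsd17b12 and Ppargc1a in 9.

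Further epithelial and ion transport genes, also picked after their values were seen, were higher. Slc12a2, the basolateral chloride transporter of secretory epithelia, had levels between -0.23 and 0.49 in Wnt1 and of 2.91, 0.59, 2.08 and 1.55 in iFGFR2, a difference of 1.73 (SE 0.35, 3.32-fold, adjusted p = 0.0398). Ocln, a tight-junction protein, differed by 1.14 (adjusted p = 0.0398). Foxa3 had levels between -2.10 and -1.43 in Wnt1 and of -0.13, -0.44, 0.05 and 0.28 in iFGFR2, a difference of 1.79 (SE 0.21, 3.45-fold, adjusted p = 0.00186). The related factors Foxa1 (-0.31, adjusted p = 0.735) and Foxa2 (0.16, adjusted p = 0.825) did not pass. Socs2, a feedback inhibitor of cytokine receptors, differed by 1.43 (adjusted p = 0.0398). Among the lower genes, Mical2, an oxidase of actin, was the 1 fall called in every fit that leaves out 1 array. It differed by -1.39 (SE 0.22, 2.63-fold lower, adjusted p = 0.0128), and Gsn, which severs actin filaments, by -1.18 (adjusted p = 0.0398). The calls of Slc12a2, Ocln, Socs2 and Gsn each held in only 2 of those 10 fits, and that of Foxa3 in all 10.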
